A study of Arabidopsis thaliana with 8 samples.

Results

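The regions described here were DNA:RNA hybrid peaks found in both wild-type and *ndx1-4* seedlings of *Arabidopsis thaliana* that were shorter in the mutant. A peak of the Col-0 list was paired with a peak of the *ndx1-4* list where each overlapped the other and nothing else, and a pair was kept where the Col-0 peak was longer by at least 100 bases. On chromosomes 1 to 5 this gave 556 narrower pairs among 12306 one-to-one pairs (4.52%, 95% Wilson interval 4.17 to 4.90%), drawn from 14180 Col-0 and 13549 *ndx1-4* peaks. The pairs were chosen by the length difference, so the lengths below are a description. The questions were which edge of the peak was displaced, over which gene features and strand, and in genes of which function.

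R-loops are structures in which an RNA pairs with its DNA template and displaces the other DNA strand. They form during transcription, and in plants they are found in gene bodies and around gene starts, on the sense and on the antisense strand. NODULIN HOMEOBOX (NDX) is a plant homeobox protein best known for stabilising an R-loop at the 3′ end of the flowering repressor *FLC*. Seedlings were collected at 10 days of age from 2 genotypes, the Col-0 wild type and the T-DNA insertion mutant *ndx1-4*, with no other allele or agent named for either. For each genotype there were 1 input library, 2 libraries precipitated with S9.6, an antibody that binds DNA:RNA hybrids, and 1 precipitated library treated with RNase H, which digests the RNA of such hybrids. The deposited peak calls comprised 1 list per genotype, so the spread between replicates is unknown for every value. Library depth is also unknown, and its part in any difference cannot be told apart from that of genotype. Whole seedlings were used, so fewer cells with a hybrid and less hybrid per cell cannot be told apart. Intervals are Wilson intervals at 95% and cover counting error only.

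As the nearest background held by the lists, the mirror image of the rule gave 350 pairs at least 100 bases wider in *ndx1-4* (2.84% of pairs), or 1.59 narrower pairs for each wider pair (1.39 to 1.82). The median length difference of all pairs was 0 bases. Start positions in both lists were multiples of 20 bases apart, and the threshold fell on a steep slope. At the threshold, 155 pairs lost exactly 100 bases. Just outside it 252 pairs lost 80 bases, and on the mirror side 88 pairs gained exactly 100 and 165 gained 80. Losses of at least 200 bases were found in 128 pairs against 83 gains of that size, and losses of at least 300 bases in 25 against 13. No peak gained more than 400 bases, whereas 5 lost at least 500.

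**Figure D1:**
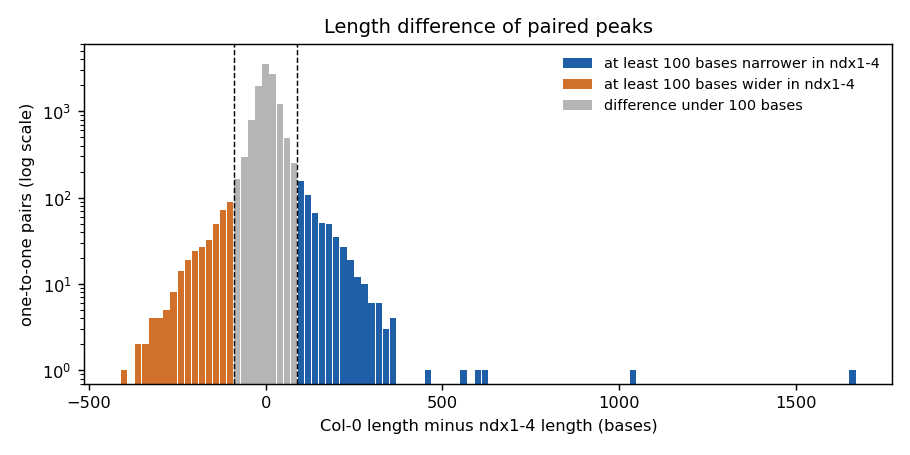
Number of one-to-one pairs (log axis) by Col-0 length minus *ndx1-4* length in bases, with dashed lines at the rule's limits. Both tails slope away from 0, the 350 wider pairs (orange) end at 400 bases, and the 556 narrower pairs (blue) reach 1660 bases.

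The narrowed peaks had a median of 460 bases in Col-0 (quartiles 380 and 600, range 300 to 2280), against 360 bases over all pairs (quartiles 280 and 500). Their *ndx1-4* partners had a median of 300 bases (quartiles 220 and 420, range 200 to 1240). The shortest peak in either list was 200 bases, so the rule admitted no Col-0 peak under 300 bases. The median loss was 140 bases (quartiles 100 and 180), which left a median of 68.8% of the Col-0 length. Scores, which are whole numbers of unstated unit, were compared only as percentiles within a list. Narrowed peaks lay at a median percentile of 43.3 in Col-0 and 38.0 in *ndx1-4*, against 53.4 and 53.1 over all pairs. Narrower pairs were 144 of 1917 pairs with a mean score percentile under 20 (6.41 to 8.78%) and 66 of 2542 pairs with one of 80 or more (2.05 to 3.29%). The number of narrower pairs per wider pair was 1.89 in the lower and 1.18 in the higher of these groups, and in the latter the interval (0.827 to 1.68) included 1.

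The sequences across the displaced edge of 8 pairs are given first, as examples from coding exons, introns near the gene start and upstream DNA. Each was read from the RefSeq TAIR10.1 assembly, whose nuclear coordinates are those of TAIR10. Each is written 5′ to 3′ on the coding strand of the gene and is centred on the *ndx1-4* edge. Capitals mark the 100 bases still under the *ndx1-4* peak, and lower case marks the neighbouring 100 bases that were under the Col-0 peak only.

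The edge lay within coding sequence in AT4G27595 (chr4:13775321-13775520, minus strand), AT3G02930 (chr3:657301-657500, plus strand), AT4G32190 (chr4:15546541-15546740, plus strand), *FAB1D* (chr1:12486241-12486440, plus strand) and the F-box gene AT1G62270 (chr1:23005221-23005420, plus strand). Purines on the coding strand ranged from 43 of the 100 lost bases in AT1G62270, where 54 of the 100 kept bases were purines, to 63 of the lost and 67 of the kept bases in AT3G02930. AT4G27595 had 62 in the lost and 65 in the kept bases. The windows were picked for their losses and do not stand for coding exons in general.
AT4G27595: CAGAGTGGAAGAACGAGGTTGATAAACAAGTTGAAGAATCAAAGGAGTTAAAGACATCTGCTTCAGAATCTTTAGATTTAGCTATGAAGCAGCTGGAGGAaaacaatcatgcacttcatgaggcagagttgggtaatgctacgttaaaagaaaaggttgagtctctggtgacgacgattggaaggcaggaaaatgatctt
AT3G02930: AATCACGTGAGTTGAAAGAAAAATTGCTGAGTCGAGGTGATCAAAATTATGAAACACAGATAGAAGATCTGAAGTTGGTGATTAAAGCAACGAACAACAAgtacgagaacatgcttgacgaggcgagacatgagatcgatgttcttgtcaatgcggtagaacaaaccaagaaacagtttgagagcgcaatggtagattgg
AT4G32190: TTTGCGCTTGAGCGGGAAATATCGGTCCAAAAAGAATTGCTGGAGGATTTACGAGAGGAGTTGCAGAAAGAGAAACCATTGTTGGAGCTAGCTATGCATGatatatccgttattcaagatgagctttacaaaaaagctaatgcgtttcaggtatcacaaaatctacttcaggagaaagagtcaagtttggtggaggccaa
FAB1D: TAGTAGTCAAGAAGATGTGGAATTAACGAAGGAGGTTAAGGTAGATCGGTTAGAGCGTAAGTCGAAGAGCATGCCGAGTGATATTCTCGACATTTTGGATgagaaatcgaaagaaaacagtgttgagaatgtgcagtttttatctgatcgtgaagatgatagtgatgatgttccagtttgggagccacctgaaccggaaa
AT1G62270: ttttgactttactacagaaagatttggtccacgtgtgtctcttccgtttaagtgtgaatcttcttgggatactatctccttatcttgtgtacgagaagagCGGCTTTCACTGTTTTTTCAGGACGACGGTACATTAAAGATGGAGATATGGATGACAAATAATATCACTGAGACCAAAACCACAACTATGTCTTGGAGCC

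In the high mobility group gene *HMGB1* (chr3:19248601-19248800, minus strand) and the ethylene signalling gene *EIN2* (chr5:787701-787900, plus strand) the edge lay within an intron near the gene start. Here the coding strand was rich in pyrimidines. Purines were 32 of the 100 lost and 37 of the 100 kept bases in *HMGB1*, and 35 and 36 in *EIN2*.
HMGB1: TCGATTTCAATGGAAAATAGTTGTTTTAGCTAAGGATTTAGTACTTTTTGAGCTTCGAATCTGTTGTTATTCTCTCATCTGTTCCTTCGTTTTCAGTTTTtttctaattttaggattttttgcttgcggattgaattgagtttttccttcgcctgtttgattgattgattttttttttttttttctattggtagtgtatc
EIN2: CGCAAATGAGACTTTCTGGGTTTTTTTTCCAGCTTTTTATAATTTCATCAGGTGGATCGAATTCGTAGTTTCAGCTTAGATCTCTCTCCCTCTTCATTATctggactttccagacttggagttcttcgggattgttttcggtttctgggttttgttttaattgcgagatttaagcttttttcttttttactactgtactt

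The edge lay in upstream DNA at AT4G05380 (chr4:2735701-2735900, plus strand), which encodes a P-loop nucleoside triphosphate hydrolase. GC content was low on both sides, at 28 of 100 lost and 28 of 100 kept bases.
AT4G05380: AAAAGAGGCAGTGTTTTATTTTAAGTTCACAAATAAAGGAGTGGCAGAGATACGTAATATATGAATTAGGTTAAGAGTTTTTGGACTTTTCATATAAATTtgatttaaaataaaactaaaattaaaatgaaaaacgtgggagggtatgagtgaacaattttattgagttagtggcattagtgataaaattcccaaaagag

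The loss was mostly at 1 edge. In 465 of the 556 narrower pairs (83.6%, 80.3 to 86.5%) the other edge moved inward by no more than 20 bases, which is 1 step of the grid. In 222 pairs (39.9%) the other edge did not move at all, and in 65 pairs (11.7%) it moved outward. Here and below, an edge is counted as lost only where it moved inward by more than 20 bases. On that count, only the left edge on the chromosome was lost in 235 pairs, only the right edge in 230 and both in 91. Of the 90780 bases lost, 45020 (49.6%) were lost on the left and 45760 on the right. The wider pairs moved at a single edge in 308 of 350 (88.0%, 84.2 to 91.0%).

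Relative to transcription the losses were close to evenly divided between the edges. Orientation was possible for 328 narrower pairs whose Col-0 peak overlapped exactly 1 gene, a protein-coding one, of which 148 lay on the plus strand and 180 on the minus strand. Among these, 153 pairs (46.6%, 41.3 to 52.1%) lost the upstream edge only, 133 (40.5%, 35.4 to 45.9%) the downstream edge only and 42 (12.8%) both. The upstream edge held 27480 lost bases (50.7%) and the downstream edge 26680 (49.3%). The downstream bases included the 2 largest losses, and without that pair of peaks the downstream share was 46.6%. By strand, the downstream share was 52.1% for genes on the plus strand and 46.9% for those on the minus strand.

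**Figure D2:**
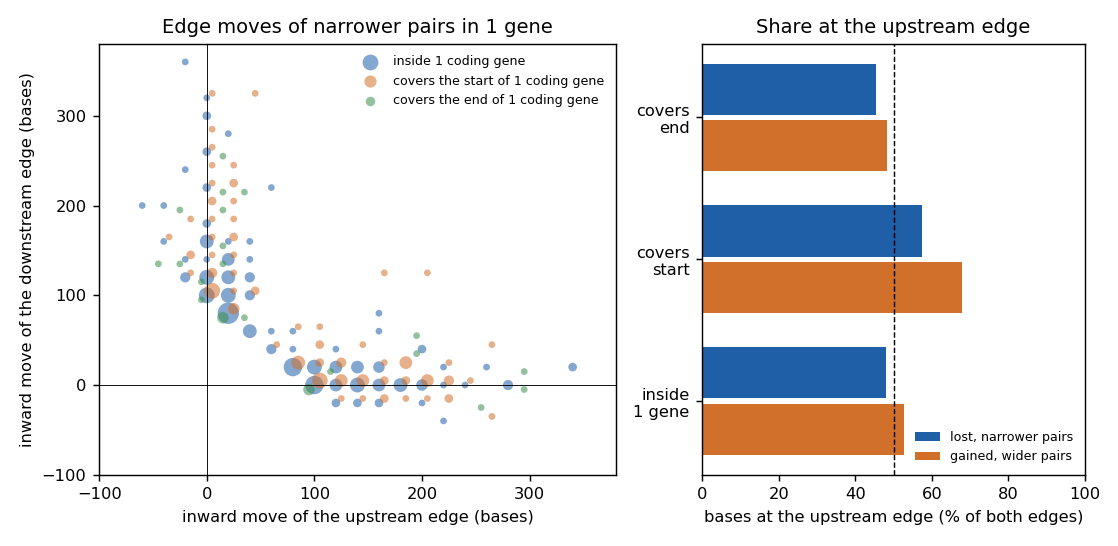
Left, inward move of the upstream edge (x axis, bases) against that of the downstream edge (y axis, bases) for narrower pairs in exactly 1 coding gene. Point area rises with the number of pairs, classes are shifted slightly apart, negative values are outward moves, and 3 pairs beyond 380 bases are not drawn. Right, share of lost or gained bases at the upstream edge (%) for narrower (blue) and wider (orange) pairs, with a dashed line at 50%. Points crowd along the axes, and the start-covering class lies furthest to the right in both directions of change.

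The edge that was displaced is given next by the position of the peak in its gene. The 191 narrower pairs inside a coding gene lost the upstream edge only in 87, the downstream edge only in 78 and both in 26, with 47.9% of lost bases upstream. The 110 narrower pairs that covered a gene start lost the upstream edge only in 58 (52.7%, 43.5 to 61.8%), the downstream edge only in 40 (36.4%, 28.0 to 45.7%) and both in 12. At gene starts the upstream edge held 10260 lost bases (57.4%) against 7600 downstream. The 61 wider pairs at gene starts also moved mostly upstream, with 38 upstream only, 20 downstream only and 67.8% of gained bases upstream. The 26 narrower pairs that covered a gene end lost the upstream edge only in 8 and the downstream edge only in 14. These intervals overlap between classes, and no difference between classes was tested.

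Narrowing took the peak off the annotated gene start in 30 of the 110 pairs (27.3%, 19.8 to 36.3%), and in 80 the *ndx1-4* peak still covered it. Measured from the start, the Col-0 peaks reached a median of 145 bases upstream and 338 bases downstream. The part common to the Col-0 and *ndx1-4* peaks reached 73.5 bases upstream and 281 bases downstream. In the wider pairs the shorter peak, here of Col-0, missed the start in 17 of 61 (27.9%, 18.2 to 40.2%). At AT4G05380 the Col-0 peak of 560 bases (chr4:2735561-2736120) became 200 bases (chr4:2735601-2735800). It lost 320 bases at its downstream edge and 40 upstream, and with them the gene start. Another 3 genes that lost the start were picked after their values were seen. The calcium-dependent protein kinase gene *CPK25* went from 420 to 200 bases, the osmotic stress kinase gene *SNRK2.4* from 400 to 200 and the villin gene *VLN5*, which encodes an actin-bundling protein, from 520 to 300. At *CPK25* the start lay in the 200 bases lost at the downstream edge and at *VLN5* in the 220 bases lost upstream. *SNRK2.4* lost 180 bases downstream, but its start lay in the 20 bases lost at the upstream edge. At gene ends, 9 of 26 narrower peaks no longer covered the end.

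The share of pairs that narrowed was 5.37% (4.48 to 6.44%) at gene starts, 5.25% (3.61 to 7.58%) at gene ends, 4.13% (3.60 to 4.75%) inside a coding gene and 4.14% (3.49 to 4.90%) where no gene was overlapped. The number of narrower pairs per wider pair was 1.80 at gene starts, 2.17 at gene ends, 1.46 inside genes and 1.73 outside genes. Each of these classes held more narrower than wider pairs, in counts of 110 and 61, 26 and 12, 191 and 131, and 126 and 73. Chromosome 4 had 110 narrower against 51 wider pairs (5.80% of its pairs, ratio 2.16, 1.55 to 3.00). The other chromosomes had ratios from 1.26 on chromosome 3 to 1.89 on chromosome 5. The pericentromere, where NDX has been tied to heterochromatin, held 106 narrower of 2473 pairs (4.29%, 3.56 to 5.16%) against 450 of 9833 on the arms (4.58%, 4.18 to 5.01%), and these intervals overlap.

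Each base was assigned to the first matching class among coding sequence (CDS), 5′ and 3′ untranslated regions (UTRs), introns, exons of noncoding genes, the flanking 1 kb before a gene, the flanking 1 kb after it, and intergenic DNA. Upstream DNA made up 24.4% of the lost bases against 17.6% of the bases kept in the same peaks, a ratio of 1.39. The 5′ UTR made up 11.3% of lost and 16.7% of kept bases, a ratio of 0.676. The remaining classes differed less, with CDS at 21.0% of lost and 22.2% of kept bases, introns at 15.2% and 15.7%, the 3′ UTR at 4.66% and 4.93%, and intergenic DNA at 7.47% and 7.10%. Wider pairs, read as gained against common bases, gave 19.7% against 14.3% upstream (ratio 1.38) and 11.2% against 16.0% in the 5′ UTR (ratio 0.699). Displaced bases of either direction thus held more upstream DNA and less 5′ UTR than the common core of the same peaks. For each base gained in the wider pairs the narrower pairs lost 1.62 bases overall and 2.01 bases upstream.

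**Figure D3:**
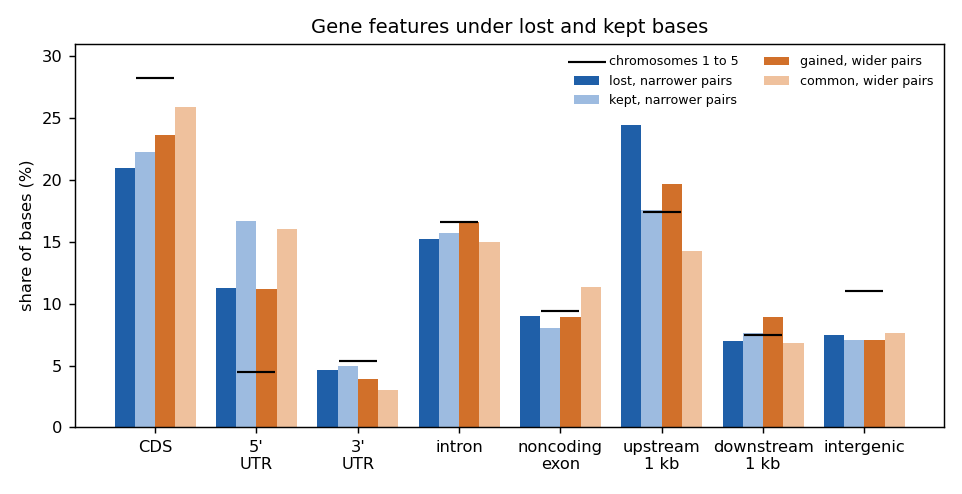
Share of bases (%) in each gene feature for the lost and kept bases of narrower pairs (dark and light blue), the gained and common bases of wider pairs (dark and light orange) and chromosomes 1 to 5 as a whole (black lines). Dark bars exceed light bars upstream of genes and fall below them in the 5′ UTR in both colours, whereas CDS bars differ by less than 3 percentage points within a colour.

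Most displaced edges began and ended in the same class of feature. Of 469 edges that moved inward by at least 100 bases, 319 ended in the class in which they began. These included 92 edges with both positions in upstream DNA, 52 in CDS, 36 in the 5′ UTR and 31 in introns. Only the end positions were compared, so the bases between them could belong to other classes or to another gene. Among the edges that changed class, 34 went from intron to CDS, 17 from upstream DNA to the 5′ UTR and 14 from CDS to intron.

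Base composition of the lost DNA was close to that of the kept DNA. GC content was 33.8% in the pooled lost bases and 34.5% in the kept bases, with medians per pair of 34.1% (SD 6.57, n = 556 pairs) and 34.6% (SD 4.78, n = 556 pairs). It was lower in the lost bases of 306 pairs and higher in 248. On the coding strand, the lost bases of pairs at gene starts held 48.9% purines and the kept bases 44.5%. The medians per pair were 48.5% (quartiles 40.9 and 55.0) in lost and 42.3% (quartiles 38.8 and 50.0) in kept bases, and the lost share was the higher in 69 pairs and the lower in 41. In the wider pairs at gene starts the gained bases held 49.3% purines and the common bases 45.9%. Pairs inside genes gave 50.2% purines in lost and 51.0% in kept bases, and pairs at gene ends 50.7% and 52.9%.

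**Figure D4:**
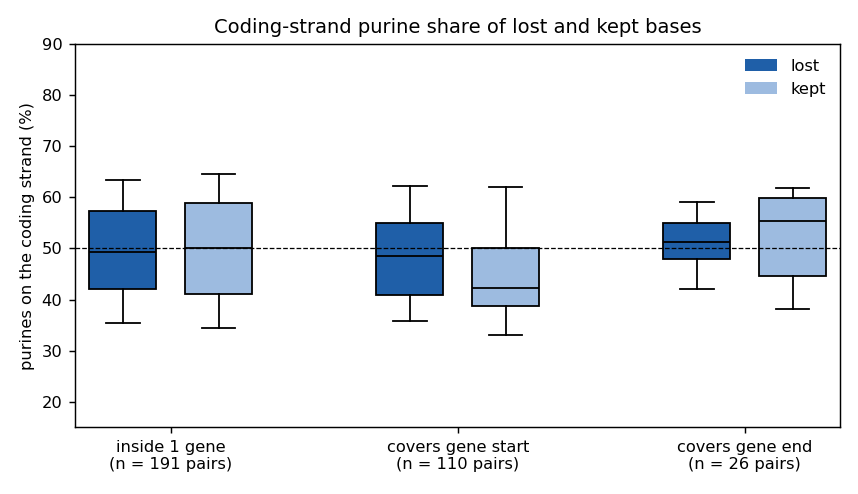
Share of purines on the coding strand (%) in the lost (dark) and kept (light) bases of each narrower pair, by position in the gene. Boxes show quartiles and medians, whiskers the 5th to 95th percentiles, and the dashed line 50%. The kept bases at gene starts have the lowest median, 42.3%, while lost and kept medians inside genes are 49.3% and 50.0%.

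Short sequence words were counted on both strands in the 100 bases on the lost and on the kept side of the 469 displaced edges, and likewise outside and inside 11336 edges that did not move. The word GAAGAA was present in 23.7% of lost and 30.1% of kept windows, against 19.8% outside and 29.7% inside edges that did not move and 15.9% of all 100-base tiles of the chromosomes. The word GAGAGA was present in 14.1% of lost and 17.5% of kept windows, against 12.1% and 16.6% at edges that did not move. The RY element core TGCATG, read by B3 domain proteins, was in 20 lost windows (4.26%) and 7 kept windows (1.49%), with 3.55% and 3.09% at edges that did not move and 4.06% of tiles. The telobox AAACCCTA was in 1.28% of lost and 2.13% of kept windows, and TATAAA in 13.4% of both. A match is only the presence of the letters.

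The largest single loss lay in AT4G27595, which encodes a WEB family protein. These are coiled-coil proteins named after WEAK CHLOROPLAST MOVEMENT UNDER BLUE LIGHT, the light-driven positioning of chloroplasts. The Col-0 peak of 2080 bases (chr4:13773761-13775840) was 420 bases in *ndx1-4* (chr4:13775421-13775840). All 1660 lost bases were CDS and lay at the downstream edge, and the upstream edge stayed at the same base. Its score percentile was 97.7 in Col-0 and 34.8 in *ndx1-4*. Purines made up 64.6% of the lost and 60.5% of the kept bases on the coding strand.

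The second largest loss was in AT3G02930, whose product has the same domain of unknown function. Its Col-0 peak of 2280 bases (chr3:656161-658440) was 1240 bases in *ndx1-4* (chr3:656161-657400), with the loss of 1040 bases again at the downstream edge and 88.4% in CDS. Because these 2 losses fell in related genes, the family was counted after its values were seen. Of its 20 genes by product name, 13 had a one-to-one pair, 3 had a narrower pair and 0 had a wider pair, against 5.20% narrower over all coding genes with a pair (379 of 7287). The family was picked for its losses, so this count supports nothing about it. The third was *WEB1*, whose peak went from 520 to 340 bases and lost both edges, with 140 bases downstream and 40 upstream, in 5′ UTR and intron. AT4G17210 had a Col-0 peak of 880 bases and no *ndx1-4* peak. Long peaks of other members did not narrow, with 1760 and 1740 bases in AT5G16730, 1300 in both lists in AT3G51720 and 3100 summed bases in both lists in AT1G65010.

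**Figure D5:**
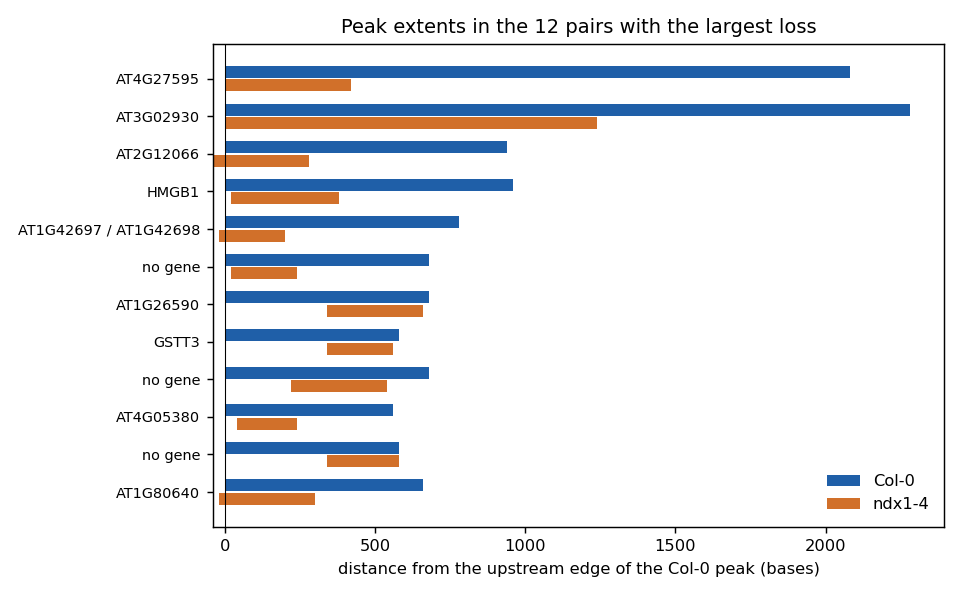
Extent of the Col-0 (blue) and *ndx1-4* (orange) peak in the 12 pairs with the largest loss, as distance in bases from the upstream edge of the Col-0 peak, or from its left edge where no single coding gene gives a direction. The top 2 pairs lose 1660 and 1040 bases on the downstream side, and the others are shorter by a net 620 bases or fewer.

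The next losses were in peaks over genes of other functions and over pseudogenes. The peak over the pseudogene AT2G12066 in the pericentromere went from 940 to 320 bases, with 48.2% of the lost bases in upstream DNA. *HMGB1*, an abundant chromatin protein that bends DNA, went from 960 to 360 bases, losing 580 bases at the downstream edge and 20 upstream, with 73.5% of the lost bases in introns. A peak over the neighbouring pseudogenes AT1G42697 and AT1G42698 went from 780 to 220 bases, with 84.8% of the lost bases in upstream DNA. The C2H2 zinc finger gene AT1G26590 went from 680 to 320 bases with 340 lost upstream. *GSTT3*, a glutathione transferase, went from 580 to 220 bases with 340 lost upstream, 94.4% of the loss being CDS. Words of 31 bases found more than once on chromosomes 1 to 5 made up 28.5% of the *GSTT3* Col-0 peak. The share was 32.0% at AT2G12066, 39.9% at AT1G42697 and AT1G42698, and 0% at *HMGB1* and AT1G26590. The part of repeats in these losses was not tested. Of the 10 largest losses, 2 lay where no gene was annotated. These peaks started at chr2:6473581 and chr2:7439861, were 680 bases each in Col-0 and measured 220 and 320 bases in *ndx1-4*.

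Single-edge losses at the gene start are illustrated by *EIN2*, the membrane protein at the centre of ethylene signalling. Its peak went from 780 bases (chr5:787341-788120) to 460 bases (chr5:787341-787800), with all 320 lost bases in an intron downstream, and the gene start stayed covered. *EFS*, a histone methyltransferase needed for high *FLC* expression, went from 480 to 240 bases, again at the downstream edge, with 57.5% of the loss in intron and 42.5% in the 5′ UTR. The opposite edge moved at *CESA5*, a cellulose synthase subunit, from 460 to 300 bases. Here the lost bases were entirely upstream DNA and the start stayed covered. *BME3*, a GATA-type factor of seed germination, lost 200 bases upstream and 120 downstream, from 1200 to 880. *RIC10*, an effector of ROP GTPases, lost 300 bases at its upstream edge and 20 downstream, from 540 to 220, at the gene end.

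By gene, 379 of 7287 protein-coding genes with a one-to-one pair had a narrower pair (5.20%, 4.71 to 5.73%) and 244 had a wider pair (3.35%), with 3 genes in both. Another 3 genes had 2 narrower pairs each. *SRD2*, an activator of small nuclear RNA transcription, had peaks that went from 500 to 300 and from 400 to 280 bases, and the bases lost from both were intron. The peaks at AT3G59800, annotated as a stress response protein, shortened by 300 bases in sum, and those at the protein kinase gene AT5G45430 by 260. Of these, 1 peak at AT3G59800 also overlapped the neighbouring gene *MPK10*. Genes with a narrower pair had a median length of 2746 bases and a median of 6 exons, against 2602 bases and 5 exons over all 7287. Genes of 1 exon made up 8.18% (5.82 to 11.4%) of them and 13.8% of all, with 10.2% (7.04 to 14.7%) among genes with a wider pair. Genes on the plus strand made up 44.6%, against 50.0% of all genes with a pair.

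Gene function was read from RefSeq product names in 18 classes and from 5 lists of gene symbols. The interval of each of these classes and lists included the 5.20% of all genes. Nucleotide-binding leucine-rich repeat (NBS-LRR) immune receptors had 5 narrower genes of 54 (9.26%, 4.02 to 19.9%) and 1 wider. These were AT5G45210 with a loss of 260 bases, the downy mildew resistance gene *RPP13* with 140, and AT1G12290, AT5G63020 and the bacterial resistance gene *RPS6* with 100 each. At AT5G45210 the peak over the gene end went from 460 to 200 bases, and in *RPP13* a peak within CDS went from 360 to 220. Genes of the ubiquitin pathway, which marks proteins for degradation, had 12 of 193 (6.22%, 3.59 to 10.6%) and 3 wider. The RING-type gene AT1G78420 lost the most among them, from 1020 to 760 bases, with 68.1% of the loss in the 5′ UTR. Protein kinases had 29 of 491 (5.91%) and 17 wider. The largest kinase loss was in AT1G80640, from 660 to 320 bases.

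Transcription factors had 18 narrower genes of 521 (3.45%) and 24 wider, and pentatricopeptide repeat proteins, which process organellar RNA, 2 of 88 (2.27%) and 6 wider. RNA helicases and RNA-binding proteins had 4 of 123 and 7 wider. The 4 were *DRB2*, *UBA1A*, *RS41* and *ATRBP45C*. Membrane transporters had 8 of 189 and 5 wider, motor and myosin-related proteins 4 of 59 and 2 wider, and chaperones 3 of 77 and 4 wider. AT4G32190, a myosin heavy chain-related gene, went from 980 to 720 bases at its downstream edge, all in CDS. The heat shock chaperone gene *HSP90.1* went from 480 to 340 bases, also within CDS but at the upstream edge. No narrower pair was found in the 8 histone genes (0 to 32.4%) or the 53 auxin genes (0 to 6.76%) that had a pair. Both intervals included the 5.20% of all genes, and 0 histone and 2 auxin genes had a wider pair.

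The lists of gene symbols chosen for NDX biology were small, and their counts are read against the 5.20% of all genes. The DNA methylation and heterochromatin list, which matched 39 of its 44 symbols, had 1 of 16, *DML1*, which encodes a DNA demethylase. Its peak went from 320 to 200 bases, losing 140 bases of intron upstream while the downstream edge moved outward by 20. Genes of related annotation that the list did not count also narrowed. Among them, AT4G08990, annotated as a DNA (cytosine-5-)-methyltransferase, went from 520 to 340 bases. The histone methyltransferase gene *SUVR1* went from 1160 to 940. Both genes were picked because they narrowed. Unlisted related genes that did not narrow were not counted, so these examples add nothing to the share. The Polycomb and VAL list, which matched 22 of its 27 symbols, had 1 of 13, *EMF1*, a repressor of flowering. Its peak over the gene end went from 820 to 680 bases, with 93.6% of the loss downstream of the gene. The wild-type peak began at base 3701541 and the gene ended at base 3701549, so the peak lay almost wholly beyond the gene. All bases kept in the mutant lay downstream of the gene. Flowering time genes had 1 of 16, *EFS* as given above. The R-loop factor list matched 13 of its 24 symbols, and 5 of those genes had a pair. These 5 genes (0 to 43.4%) and the 9 abscisic acid genes with a pair (0 to 29.9%) had 0 narrower pairs. Both intervals included 5.20%, and 1 abscisic acid gene had a wider pair.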

How the data were processed

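For each genotype the authors deposited 1 list of peaks (TAIR10 coordinates), giving positions and a score in whole numbers. The unit of the score in the deposited lists is not given in the sources used here. The submitters' processing notes name Bowtie2, SAMtools, Picard, deepTools and MACS2, and their versions and thresholds, and how the 2 IP libraries, the input and the RNase H library entered each list, are not given in the sources used here. The other deposited values used here were peak positions. The paper given with the data describes other tissue, and only its style was followed.

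Peaks on chromosomes 1 to 5 were paired one to one where they shared at least 1 base. An edge was counted as lost where it moved inward by more than 20 bases. Gene models and sequence were from RefSeq TAIR10.1, and 2 peaks per list ended exactly at a chromosome end, which checked the build. Windows of 100 kb were pericentromeric where coding genes covered under 40%, averaged over 5 windows. Python 3.11.15, numpy 2.4.6 and matplotlib 3.10.9 were used, and the code was tested on simulated data. With 1 list per genotype no test was made. Depth per library was unknown.

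Members and gene lists were chosen with earlier results of these data known. Named pairs were the 10 largest losses, the 10 others with the smallest share of length left, the 3 largest for each kind of edge loss, genes with 2 or more narrower pairs, members of the symbol lists, and the largest loss in each function class. Not all are described. Alternatives changed the minimum loss, score, merging, overlap, chromosome arms, orientation and counting rules.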

Additional observations from a re-analysis of the deposited data

How the results depend on the processing

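Of 60 alternatives over 7 results, 46 stayed within the interval of the reported value or within 1.5 times of a count, and 14 did not. For the downstream and CDS shares, this was a Wilson interval that treated a share of bases as a share of pairs. For GC content it came from the spread between pairs. The 556 narrower pairs became 1297 with a minimum loss of 60 bases, 128 with 200 bases and 238 in the higher-scoring 50% of each list. The 379 genes with a narrower pair became 861, 90 and 158 under those settings. The single-edge share of 83.6% was 90.4% with the minimum of 60 bases, 77.3% with 200 bases, and 51.6% where the other edge had to stay or move outward. The downstream share of lost bases was 42.2% among higher-scoring peaks. It passed 50% with the minimum of 200 bases (53.0%) and with peaks within 100 bases merged (51.1%). The CDS share was 24.9% with the minimum of 200 bases, 24.7% on the chromosome arms and 40.3% when only bases of coding genes were counted, since the denominator is then smaller. GC content of lost bases was 32.4% among higher-scoring peaks. The cause was not tested for the other changes. The ratio of narrower to wider pairs ranged from 1.43 to 1.70. Leaving out the 2 largest losses, an alternative chosen after seeing the data, gave a CDS share of 18.7% and a downstream share of 46.6%.

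No paired analysis was possible because a single list stood for either genotype, which also left no replicate to omit. Depth was unknown, and its part in the shorter peaks of *ndx1-4* was not tested. Scores moved with the result. The median score percentile of Col-0 minus that of *ndx1-4* was 3.00 points in the narrower pairs and -2.91 points in the wider pairs, and its part in the narrowing was not tested.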

Other observations

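Noncoding genes were also among the narrower pairs, which were 4.52% of all pairs (556 of 12306). Long noncoding RNA genes were overlapped in 26 of 462 pairs (5.63%), pseudogenes in 44 of 889 (4.95%) and transcribed pseudogenes in 3 of 122 (2.46%). Of 41 pairs over microRNA precursors 2 narrowed. At *MIR166g*, whose product targets HD-ZIP III leaf polarity genes, the peak went from 640 to 440 bases with 100 bases lost on each side. At *MIR159a*, whose product targets GAMYB-type transcription factor genes, the peak went from 760 to 660 bases, with 80 bases lost on the left and 20 on the right.

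The organelle genomes lay outside the rule. Their 17 chloroplast and 5 mitochondrial one-to-one pairs included 0 that differed by at least 100 bases.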
